A study of Mus musculus with 5 samples.

Results

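Pou4f1 CUT&Tag signal was examined at 10 genes of the Notch pathway: the ligands Dll1, Dll3, Dll4, Jag1 and Jag2, the receptors Notch1 and Notch2, and the transcriptional effectors Hes1, Hes5 and Hey1. Regions were assigned by position alone: every region of the deposited table that overlapped the body of one of these genes, or lay within 20 kb of it, in the GENCODE M21 annotation of mm10. The rule found 11 of the 8038 regions of the table, and these belonged to 6 of the 10 genes: Dll1 with 2, Jag1 with 3, Notch1 with 1, Notch2 with 1, Hes5 with 3 and Hey1 with 1. No region lay within 20 kb of Dll3, Dll4, Jag2 or Hes1.

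CUT&Tag directs a protein A-Tn5 transposase to an antibody bound on chromatin, so that DNA near the antibody's target is tagged and sequenced. Retinas of wild-type mouse embryos of a mixed strain background were taken at E16.5, and the 4 retinas of each sample were pooled and dissociated. A rabbit antibody against Pou4f1 was used for 2 libraries and rabbit IgG, the negative control, for 2 libraries. A single library made with an H3K9AC antibody was not analysed here. The table gives a signal for each region in the 4 libraries. Its columns are Pou4f1 1 and 2, one named IgG and one named Negative. The last was taken as the other IgG library and is called negative control here. The study calls its replicates independent, but the sources do not say whether the libraries of an antibody came from separate pools of retinas, so p-values measure the spread between these libraries only, which may be technical. Whole retinas were used, so the cells in which a region was tagged are not known, and the table holds no expression values against which the labelled tissue could be checked.

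The Notch receptors are transmembrane proteins activated by ligands of the Delta-like and Jagged families on a neighbouring cell. Activation releases the intracellular domain of the receptor, which enters the nucleus, joins the DNA-binding protein RBPJ and turns on Hes and Hey genes, whose products are basic helix-loop-helix repressors. In the developing retina this pathway holds progenitors in an undifferentiated state, and retinal ganglion cells arise among the first neurons as cells leave that state. Pou4f1 is a POU-homeodomain transcription factor of differentiating retinal ganglion cells.

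The sequences below show the parts of these loci that carry a motif or mark how far a region reaches over a start. They were read from GRCm38.p6, the assembly of mm10. The POU motif searched was ATNAATNAT, the RBPJ core was GTGGGAA and its looser form was GTGNGAA, each on both strands. Every match of the RBPJ core is also a match of the looser form. The first 4 are stretches of 100 bases of the plus strand with the motif in capitals. They lie in the region that touches exon 6 of Jag1 (chr2:137096819-137096918, POU), in that touching exon 4 of Jag1 (chr2:137101137-137101236, looser RBPJ form), at the start of Pank4 next to Hes5 (chr4:154964017-154964116, POU) and in the region upstream of Hes5 (chr4:154946471-154946570, RBPJ). The 2 Jag1 regions are named by the exon they touch but are mostly intronic, with 28 of 623 and 118 of 907 bases in exons.
Jag1 exon 6: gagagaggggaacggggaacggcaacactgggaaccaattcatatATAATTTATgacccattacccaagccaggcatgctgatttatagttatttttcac
Jag1 exon 4: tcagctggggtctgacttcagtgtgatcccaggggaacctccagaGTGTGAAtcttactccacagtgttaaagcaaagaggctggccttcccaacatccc
Pank4 start: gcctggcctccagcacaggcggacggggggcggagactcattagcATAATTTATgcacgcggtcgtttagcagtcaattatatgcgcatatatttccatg
Hes5 upstream: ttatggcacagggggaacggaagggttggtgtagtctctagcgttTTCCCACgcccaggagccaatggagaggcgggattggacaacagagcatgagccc
The next 4 are promoters from RefSeq, written along the gene and ending before its first annotated base. In those of Jag1 (chr2:137116645-137116770, minus strand) and Dll1 (chr17:15376933-15377182, minus strand, the upstream of its RefSeq starts) capitals mark the bases inside the region. In that of Hes5 (chr4:154960673-154960922, plus strand) capitals mark the RBPJ core. That of Notch2 (chr3:98013288-98013526, plus strand) lay wholly inside its region and held neither motif, so nothing is in capitals.
Jag1 promoter: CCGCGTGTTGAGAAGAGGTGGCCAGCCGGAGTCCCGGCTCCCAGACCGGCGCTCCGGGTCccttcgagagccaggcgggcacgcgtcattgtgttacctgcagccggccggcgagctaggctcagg
Dll1 promoter: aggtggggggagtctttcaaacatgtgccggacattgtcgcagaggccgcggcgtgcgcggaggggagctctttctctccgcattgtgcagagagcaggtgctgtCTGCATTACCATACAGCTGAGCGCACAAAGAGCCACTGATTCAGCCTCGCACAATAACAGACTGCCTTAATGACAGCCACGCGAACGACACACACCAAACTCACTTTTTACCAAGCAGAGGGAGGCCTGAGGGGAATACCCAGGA
Hes5 promoter: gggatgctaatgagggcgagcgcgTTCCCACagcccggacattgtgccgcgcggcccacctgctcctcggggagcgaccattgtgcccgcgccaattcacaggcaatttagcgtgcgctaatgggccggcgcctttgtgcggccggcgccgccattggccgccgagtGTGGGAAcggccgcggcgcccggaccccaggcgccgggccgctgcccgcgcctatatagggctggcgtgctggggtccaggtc
Notch2 promoter: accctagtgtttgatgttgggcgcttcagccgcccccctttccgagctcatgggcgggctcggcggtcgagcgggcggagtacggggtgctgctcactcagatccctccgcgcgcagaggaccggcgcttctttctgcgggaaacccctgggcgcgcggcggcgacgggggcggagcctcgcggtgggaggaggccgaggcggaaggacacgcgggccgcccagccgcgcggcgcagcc

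**Figure D1:**
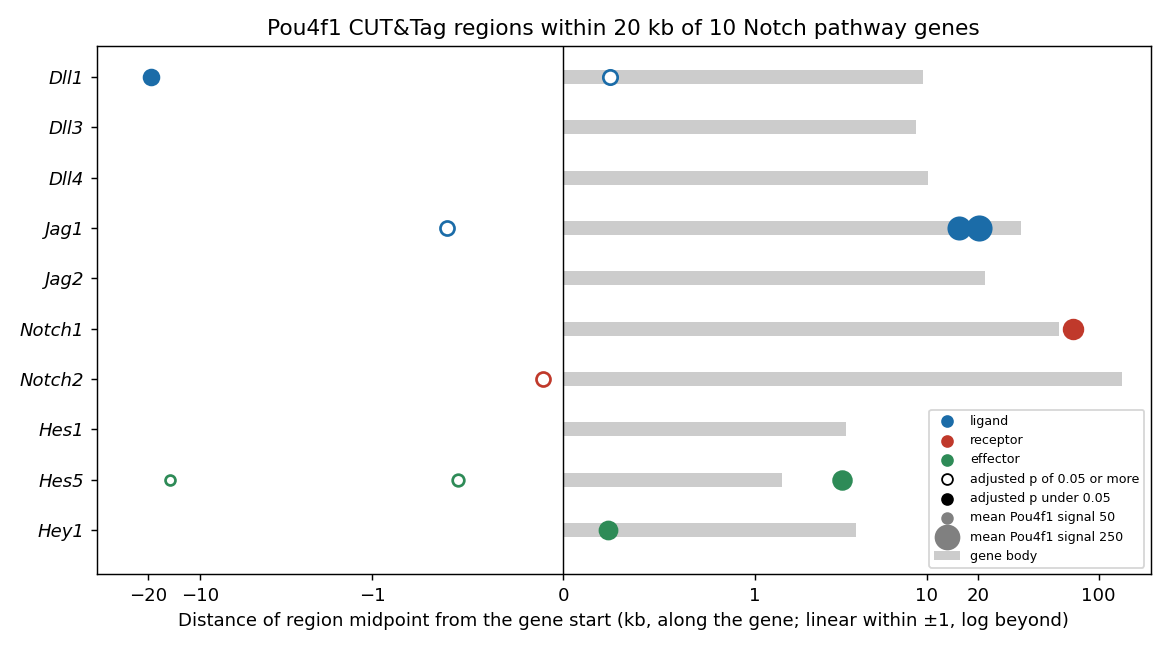
Each row is a Notch pathway gene drawn from its start along its body (grey bar), with the midpoint of each Pou4f1 CUT&Tag region placed by its distance from the start in kb (linear within 1 kb, logarithmic beyond). Circle area is proportional to the mean Pou4f1 signal of the 2 replicates, and filled circles had an adjusted p under 0.05 against IgG. The largest circles are the Jag1 regions 15399 and 20037 bp inside the gene, and 4 genes have no circle.

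Pou4f1 signal was compared with IgG in limma on log2(signal + 1), across all 8038 regions, with a Benjamini-Hochberg adjusted p under 0.05 as the threshold. The authors called the regions of the table from Pou4f1 signal, with rabbit IgG as the negative control of the calling. The fit compares Pou4f1 with IgG again, so its p-values are not independent of that choice. Most regions passed: 5205 were higher in Pou4f1 (64.8%) and 18 were lower (0.224%). Of the 11 Notch pathway regions, 6 were higher (54.5%) and 0 were lower. In all 11 both Pou4f1 libraries exceeded both IgG libraries, as they did in 96.5% of the table. The median log2 difference was 4.01 over the 11 regions and 5.22 over all regions. The 6 regions were 2 within the Jag1 gene, the start of Hey1, and 3 at starts of neighbouring genes (Fam120b near Dll1, 0610009E02Rik near Notch1 and Pank4 near Hes5).

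Jag1, a ligand of the Jagged family, held the 2 regions with the highest mean Pou4f1 signal. The stronger by that mean spanned 623 bp at chr2:137096296-137096918, with its midpoint 20037 bp inside the gene, and covered 28 coding bases of exon 6 of the 26 exons of Jag1-201. Its signal was 207 and 274 in Pou4f1 replicates 1 and 2, while both IgG libraries listed it at 0. Replicate 2 was the higher, and the groups did not overlap. On the log2(signal + 1) scale the difference was 7.90 (SE 0.41, adjusted p = 0.00222 by limma), a value that depends on the added 1 because IgG was at 0. With 0.1 or 10 added it was 11.22 or 4.63. The POU match shown above lies 261 bp from its midpoint, towards the Jag1 start.

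The other intragenic region of Jag1 spanned 907 bp at chr2:137100792-137101698, 15399 bp inside the gene, and covered 118 coding bases of exon 4. Pou4f1 replicates 1 and 2 gave 201 and 199, IgG 26.9 and negative control 15.2. The replicates were nearly equal and both lay far above IgG. The log2 difference was 3.24 (SE 0.49, adjusted p = 0.0156 by limma), and it was -0.74 when each column was divided by its total, a scaling that lowered the median of all regions by 2.48. Equal totals take out the difference in summed signal between the Pou4f1 and IgG columns, here and wherever column totals are used below. Without Pou4f1 replicate 1 or replicate 2 the log2 difference was 3.23 and 3.25. With IgG values multiplied by 4 it was 1.29 (adjusted p = 0.184 by limma). The region at the start of Jag1 (chr2:137116711-137117795) had its midpoint 609 bp before the start and stopped 67 bp short of the gene. Its signal was 122 and 50.4 in Pou4f1, and 22.5 and 12.3 in IgG and negative control. The groups did not overlap, but replicate 2 was nearer to IgG than to replicate 1. The log2 difference of 2.17 (SE 0.70) did not pass (adjusted p = 0.0643 by limma) and was -1.78 with column totals.

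Dll1, a ligand of the Delta-like family, had a region of 904 bp at chr17:15376174-15377077. It covered the most upstream annotated start of Dll1, 246 bp from its midpoint. The midpoint lay 650 bp before the start of the principal transcript Dll1-201, none of whose exons the region touched, and the noncoding gene A930024N18Rik overlaps it on the other strand. The signal was 117 and 63.4 in Pou4f1, 0 in IgG and 15.7 in negative control. Both Pou4f1 values were above both controls, but the controls differed from each other, and the log2 difference of 4.41 (SE 1.68) did not pass (adjusted p = 0.0859 by limma). It was 2.38 without the library named IgG, 6.45 without the negative control and 2.10 with column totals. The other region lay 18582 bp beyond the Dll1 body at chr17:15395454-15396752, 99 bp from the start of Fam120b, a coactivator gene. Its signal was 128 and 65.8 in Pou4f1 and 0 in both IgG libraries, so the groups were apart. The log2 difference was 6.53 (SE 0.53, adjusted p = 0.00388 by limma), again against controls listed at 0, and 9.84 or 3.35 with 0.1 or 10 added. It was the last region inside the 20 kb limit.

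**Figure D2:**
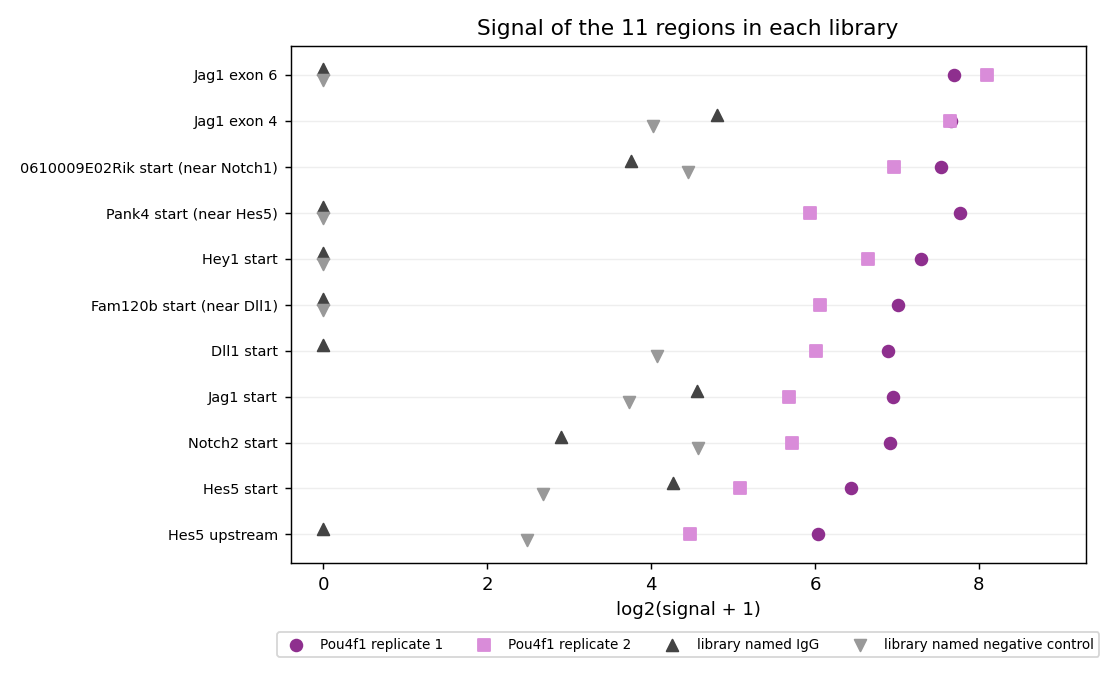
Signal of the 11 regions in the 4 libraries on a log2(signal + 1) axis, ordered by mean Pou4f1 signal. Both Pou4f1 points lie to the right of both IgG points in every row. The 4 rows with both IgG points at 0 are the Jag1 exon 6 region and the starts of Pank4, Hey1 and Fam120b.

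The receptor genes held no region in their bodies apart from the start of Notch2. At Notch2 the region of 941 bp (chr3:98012951-98013891) lay over the start, with its midpoint 106 bp before it, and covered exon 1 of the 34 exons of Notch2-201. The gene, 136835 bp long, held no other region. Its signal was 120 and 51.7 in Pou4f1, 6.48 in IgG and 22.7 in negative control. The groups were apart, with replicate 2 again nearer to the controls than to replicate 1. The log2 difference was 2.58 (SE 0.89, adjusted p = 0.0719 by limma) and -1.33 with column totals. Notch1 had no region at its start or in its body of 58761 bp. Its region (chr2:26444551-26446533) lay 11370 bp past its 3' end, 154 bp from the start of the noncoding gene 0610009E02Rik. The signal there was 184 and 124 in Pou4f1, 12.5 in IgG and 20.8 in negative control. The log2 difference was 3.15 (SE 0.52, adjusted p = 0.0190 by limma), and -0.81 with column totals. Without Pou4f1 replicate 1 or 2 the log2 difference was 2.86 and 3.43. With IgG values multiplied by 2 it was 2.19 (adjusted p = 0.0591 by limma).

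Among the effectors, Hey1 had a region at its own start that passed. It spanned 729 bp at chr3:8666660-8667388 and covered the start and 475 exonic bases, beginning with exon 1 of the 5 exons of Hey1-201. The signal was 156 and 99.0 in Pou4f1 and 0 in both IgG libraries. The log2 difference was 6.97 (SE 0.45, adjusted p = 0.00251 by limma), and of the 5 regions at most 1 kb from a start of Dll1, Jag1, Notch2, Hes5 or Hey1 it was the only one to pass. With 0.1 or 10 added in place of 1, the difference was 10.28 or 3.75. Of all regions this close to a start in the table, 62.1% passed. An RBPJ core lay 6 bp from its midpoint.

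Hes5, a Notch-induced repressor of neuronal differentiation, had 3 regions, of which the one at its start and the one upstream had the lowest mean Pou4f1 signals of the 11. At its start (chr4:154959685-154961062, midpoint 549 bp before the start) the signal was 85.9 and 33.0 in Pou4f1, 18.3 in IgG and 5.42 in negative control. Both Pou4f1 values were above both controls, though replicate 2 was nearer to them than to replicate 1. The log2 difference was 2.29 (SE 0.90, adjusted p = 0.0916 by limma), 1.49 without the negative control and -1.60 with column totals. The whole RefSeq promoter window of Hes5 was inside this region, with its RBPJ cores 226 and 83 bp before the start. The upstream region, centred 15068 bp before the start (chr4:154944985-154946724), had a signal of 64.6 and 21.3 in Pou4f1, 0 in IgG and 4.60 in negative control, a log2 difference of 4.01 (SE 1.22, adjusted p = 0.0581 by limma) that was 1.80 with column totals. The region 1393 bp past the 3' end of Hes5 (chr4:154963764-154964514) lay over the start of Pank4, a gene of the pantothenate kinase family. There the signal was 217 and 60.1 in Pou4f1 and 0 in both IgG libraries. Its log2 difference was 6.85 (SE 0.82, adjusted p = 0.00939 by limma), and 10.16 or 3.66 with 0.1 or 10 added. Its replicates were the farthest apart of the 11 regions, with replicate 2 at 0.276 of replicate 1.

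**Figure D3:**
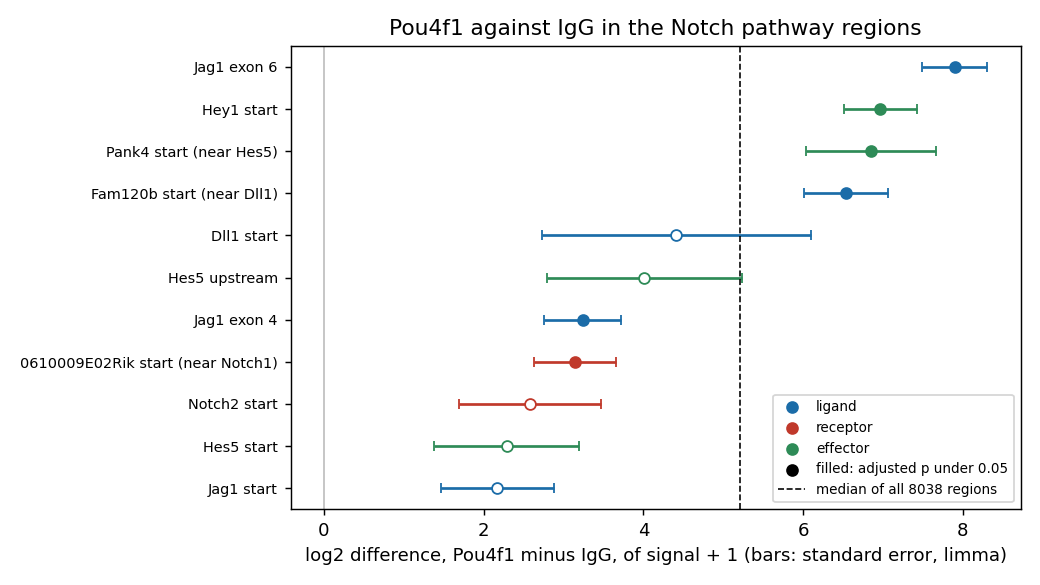
Log2 difference of signal + 1, Pou4f1 minus IgG, with its standard error from limma, for the 11 regions. Filled points had an adjusted p under 0.05, and the dashed line is the median of all regions at 5.22. The 4 regions with IgG at 0 lie above the line and the other 7 below it. When columns were divided by their totals, 5 of those 7 were below 0. That scaling sets Pou4f1 and IgG columns to equal totals and lowered the median of all regions by 2.48.

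Whether a region passed went with its IgG values. All 4 regions listed at 0 in both IgG libraries passed, as did 2 of the 5 with signal in both and 0 of the 2 at 0 in 1 of them. In the table these classes passed in 1829 of 1835, 1990 of 2687 and 1386 of 3516 regions. With either IgG library left out, the standard error was 0.73 in each of the 11 regions, whatever the spread of its 2 Pou4f1 values. Without either Pou4f1 library it was 0.074 in the 4 regions where both IgG values are 0 and have no spread. A lone library gives no spread of its own. Without an IgG library the fit took the spread of these regions from the whole table alone. Without a Pou4f1 library it took it from the 2 IgG values and the whole table. Which regions pass then follows from the fit, and without a Pou4f1 library from the zeros. It says nothing of how stable the regions are.

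The steps of the values show how little signal the controls held. Multiplied by region length, 99.99% of the values of Pou4f1 replicate 1 and 100% of those of the other libraries were whole multiples of a step set by the library (tolerance 0.05). If a step is 1 base of 1 read, an assumption that the sources do not state, the 11 regions held between 2356 and 8126 read bases in Pou4f1 replicate 1 and between 605 and 4015 in replicate 2. IgG held at most 331 and negative control at most 465. If the values were also scaled to a common depth, the steps give depths relative to Pou4f1 replicate 1. These are 0.735 for replicate 2, 0.590 for IgG and 0.506 for negative control, and the read bases are not adjusted for them. No source used here gives the depth of the libraries.

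Averaged over all their regions, effectors had the lowest mean Pou4f1 signal of the 3 roles in both replicates. The means rest on 5 ligand, 2 receptor and 4 effector regions, each set from 2 genes. Hes5 gave 3 of the 4 effector regions, and its start and upstream regions were the lowest of all. In each role 1 region lay at a neighbour's start (Fam120b, 0610009E02Rik and Pank4). With each gene's best region, replicate 1 gave 217 and 156 for effectors, 207 and 128 for ligands, 184 and 120 for receptors. Replicate 2 gave 60.1 and 99.0, 274 and 65.8, and 124 and 51.7. Effectors were then not the lowest in replicate 1. The mean log2(signal + 1) over the regions of a role was 7.24 and 6.70 for ligands in Pou4f1 replicates 1 and 2, 7.22 and 6.34 for receptors, and 6.89 and 5.54 for effectors. The order was the same in both replicates, but ligands and receptors were 0.014 apart in replicate 1. In the IgG and negative control libraries the means were 1.87 and 2.36 for ligands, 3.33 and 4.51 for receptors, and 1.07 and 1.29 for effectors. The receptor regions thus had the highest control signal in both. Pou4f1 minus IgG, the difference between ligands and receptors was 1.99, that between ligands and effectors -0.18 and that between receptors and effectors -2.17. None could pass: with 2 libraries against 2 the smallest p of the two-sided exact permutation test is 0.333, which the first and last of the 3 pairs reached (adjusted p = 0.5, and 1 for ligands against effectors). The ligand and effector difference was 0.26 with a pseudocount of 10, 0.31 with the best region of each gene and 0.00875 with regions nearest to the gene's own start.

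By mean Pou4f1 signal (± SD, n = 2) the regions ran from 240 ± 47.5 at Jag1 exon 6, rank 2378 of 8038, to 42.9 ± 30.7 before Hes5, rank 7974. Jag1 exon 4 followed at 200 ± 1.10 (rank 3244), then the 0610009E02Rik start at 154 ± 42.8 (rank 4659), the Pank4 start at 139 ± 111 (rank 5247) and the Hey1 start at 127 ± 40.2 (rank 5697). The Fam120b start was at 96.7 ± 43.7 (rank 6850), the Dll1 start at 90.3 ± 38.1 (rank 7081), the Jag1 start at 86.5 ± 50.9 (rank 7191), the Notch2 start at 85.7 ± 48.2 (rank 7208) and the Hes5 start at 59.5 ± 37.4 (rank 7813). Each neighbouring pair in this order differed by less than the larger SD of the pair, except Jag1 exon 4 and the 0610009E02Rik start. None of the 11 was among the first 2009 regions of the table, 6 were among the last 2010 and 9 were below its median signal, with a median rank of 6850. Among the 2881 regions more than 1 kb from any start, Jag1 exon 6 ranked 1225 and Jag1 exon 4 ranked 1570. Among the 5147 regions near a start, Hey1 ranked 3465, the highest of the regions at a member's own start.

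**Figure D4:**
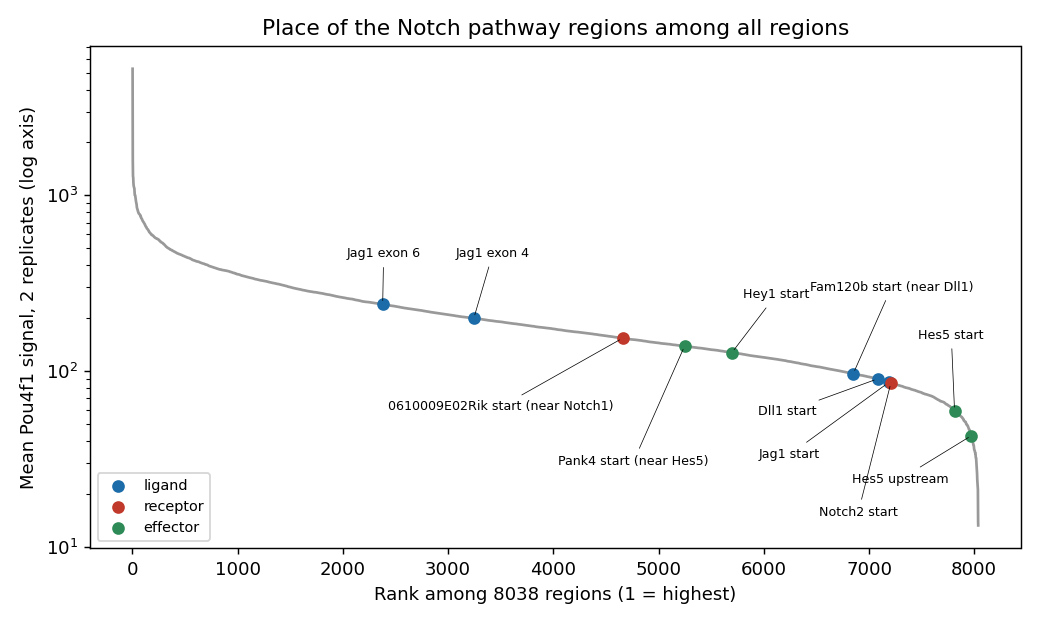
Mean Pou4f1 signal of all 8038 regions in rank order (grey line, logarithmic axis), with the 11 Notch pathway regions as coloured points. The Jag1 regions inside the gene lie highest, at ranks 2378 and 3244, and 6 points are among the last 2010.

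The Jag1 exon 6 and exon 4 regions had the highest ratios of replicate 2 to replicate 1 and the lowest GC content of the 11. Replicate 2 was above replicate 1 in 1 of the 11 regions, Jag1 exon 6, where the ratio was 1.33, and at Jag1 exon 4 it was 0.992. At the other 9 the ratio lay between 0.276 and 0.672. In the table replicate 2 was the higher in 33.2% of regions, in 16.6% of those near a start and in 62.8% of those away from one. GC content was 50.9% and 51.5% in the Jag1 regions, between 54.7% and 72.0% in the others, and 49.0% in the median region away from a start. The ratio of observed to expected CpG was 0.149 and 0.183 in the Jag1 regions, near the 0.167 of the region before Hes5 and the median of 0.243 away from starts. In the other 8 it lay between 0.444 and 0.905. The part of base composition in the replicate ratio was not tested.

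**Figure D5:**
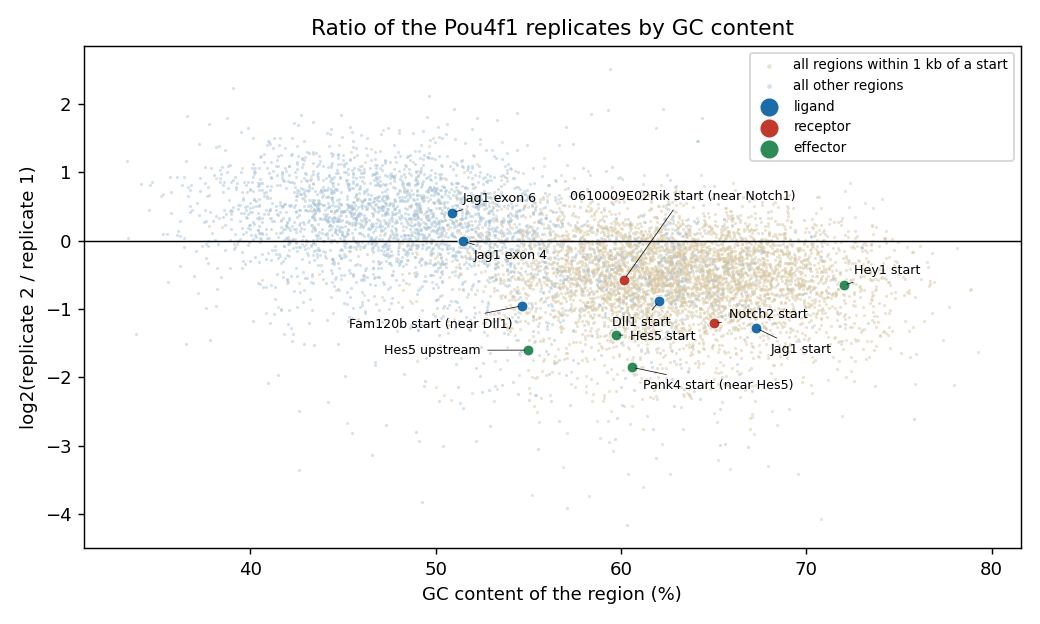
Log2 ratio of Pou4f1 replicate 2 to replicate 1 against the GC content of the region, for all regions with signal in replicate 2 (small points, by whether they lie within 1 kb of a start) and the 11 Notch pathway regions (large points). Jag1 exon 6 is above the line of equal replicates, Jag1 exon 4 lies on it and the other 9 are below it.

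Motifs were counted in the regions and set beside their share of the table. In the central 300 bp the POU motif was in 1 of the 11 regions (9.09%, the Pank4 start) and in 11.4% of the table, where 2.12% of regions near a start and 27.9% of those away from one held it. Over whole regions it was in 2 of 11 (18.2%, with Jag1 exon 6 added) and in 21.7% of the table. The letters matched were ATAATTTAT in both. The RBPJ core was in the central 300 bp of 1 of 11 regions (9.09%, Hey1) against 5.66% of the table, and in 3 of 11 whole regions (27.3%, with the Hes5 start and upstream regions added) against 19.4%. The looser form GTGNGAA was in the central 300 bp of 2 of 11 (18.2%, Hey1 and Jag1 exon 4) against 12.0%. Of the 8 genes with an entry in the RefSeq promoter table, which leaves out Hes1 and Hey1, only Hes5 held a motif in its promoter, with 2 RBPJ cores. Of all 32851 promoters, 3.75% held the POU motif, 6.38% the RBPJ core and 14.2% the looser form. Of the promoter windows of 300 bases, 300 bases of Hes5 and Notch2, 195 of the upstream Dll1 start and 60 of Jag1 lay inside a region, and 0 of Notch1, Dll3, Dll4 and Jag2.

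The genes without a region were far from the nearest one, except Hes1. Hes1, a Notch-induced transcriptional repressor, had its nearest region 35528 bp away at chr16:30028094-30028856. The signal there was 158 and 177 in Pou4f1 and 0 in both IgG libraries (rank 4204), and it was the first region outside the 20 kb limit. The nearest regions lay 83897 bp from Jag2, 90252 bp from Dll3 and 116405 bp from Dll4. Among 21938 protein-coding genes 40.8% had a region within 20 kb and 22.3% a region midpoint within 1 kb of the start, against 6 (60%) and 5 (50%) of the 10 Notch pathway genes. A gene absent from the table is one for which no region was listed, and the signal there was not analysed here.

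Other genes of the pathway were read from the same fit. Of 65 such genes, 38 (58.5%) had a region within 20 kb and 25 (38.5%) one within 1 kb of the start, and 27 had none. Their 59 regions included 40 higher in Pou4f1 (67.8%, against 64.8% of all regions) and 0 lower. The median log2 difference was 4.96, against 5.22 over all regions. The counts by role rest on 2 to 16 regions each and were not tested against each other. They include regions whose nearest start is another gene's, such as Nhlh1 and Copa near Ncstn, Abhd3 near Mib1 and Timmdc1 near Poglut1. By role, 7 of 8 regions of ligand and receptor cleavage genes passed, 12 of 16 of corepressors, 6 of 6 of ligand endocytosis, 6 of 10 of nuclear activation, 2 of 5 of other Hes and Hey genes, 2 of 3 of the other receptors, 2 of 3 of noncanonical ligands, 2 of 2 of glycosylation and 1 of 6 of inhibitors. The genes with the highest regions were the corepressors Tle4, Tle3 and Tle1, and Ncstn, Aph1b and Aph1c, which encode subunits of the gamma-secretase that cleaves Notch. For Ncstn that region (453 and 601 in Pou4f1, 0 in both IgG libraries, rank 300) lay at the start of Nhlh1, 8246 bp from the Ncstn body. Aph1b and Aph1c shared a region at the start of Aph1b, 18865 bp from the Aph1c body (509 and 376, against 24.6 and 27.8). At Tle4 the signal was 448 and 528 in Pou4f1, 18.0 in IgG and 31.1 in negative control. At Tle3 it was 354 and 616, against 3.02 and 0, and at Tle1 491 and 420, against 15.4 and 0. Each of these regions exceeded the 11 regions above in mean Pou4f1 signal, with ranks of 300 to 524.

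The regions most like Jag1 exon 6 over the 4 libraries were named by their nearest start. By Euclidean distance of log2(signal + 1) they were at Aknad1 (0.00784), Asic4 (0.0189) and Gm15348 (0.0434). Their Pou4f1 signals were 208 and 275, 204 and 276, and 211 and 268, with 0 in both IgG libraries.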

How the data were processed

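The authors trimmed the paired-end reads (75 cycles), masked low-complexity sequence, aligned them to mm10 with Bowtie2 2.4.5 (version per the submitters' processing notes) and used SEACR (relaxed) to call regions. Rabbit IgG was the negative control in the calling. The deposited values are a signal per region and library. No source used here says how it was averaged and scaled, or whether calls were pooled. The column named negative control was taken as IgG, since rabbit IgG is the negative control of the study. Starts in the table count from 0 and are printed from 1.

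Regions within 20 kb of a gene body were taken from GENCODE M21, and distances from the midpoint to the most upstream start. The members and lists were chosen with earlier results of these data known. Every member region is described. Of the other pathway genes the 5 with the highest mean Pou4f1 signal were named (with Aph1b, which shares the region of Aph1c), and the 3 regions nearest to the highest member region. Pou4f1 was fitted against IgG by limma 3.58.1 (R 4.3.3), on log2(signal + 1) and without covariates, tested on simulated data. Values were not counts, so no count test was run. Motifs were searched in Python 3.11.15 with pysam 0.24.0.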

Additional observations from a re-analysis of the deposited data

How the results depend on the processing

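Regions called higher or lower in the whole table numbered 5205 and 18. They numbered 1821 and 164 with columns divided by their totals, 2949 and 44 with IgG multiplied by 2, and 2152 and 88 with IgG multiplied by 4. Leaving out 1 library gave 2360 to 7710 higher and 7 to 63 lower. Those called lower were 6 with a pseudocount of 0.1, 41 with one of 10, 34 with a trended spread and 1 with the signal divided by the step of its library, an alternative chosen after seeing the data. Of the 11 Notch pathway regions, 6 were higher. With column totals 4 were, and with IgG multiplied by 2 and 4 the counts were 5 and 4. With a trended spread 7 were higher, and 8 with the signal divided by the step of its library. With a pseudocount of 10 the count was 10, a setting in which 7443 of all 8038 regions were higher. Of the 6 that overlap a gene body, 3 were higher. Of the regions of other pathway genes, 40 of 59 were higher, 10 with column totals, 21 and 14 with IgG multiplied by 2 and 4, 18 to 58 when leaving out 1 library, 26 of 38 without a flank and 61 of 89 within 50 kb. Column totals turned Jag1 exon 4 to -0.74, the Jag1 start to -1.78, the 0610009E02Rik start to -0.81, the Notch2 start to -1.33 and the Hes5 start to -1.60, none past the threshold. The ligand and effector difference turned to 0.26 with a pseudocount of 10, 0.00875 with regions nearest the gene's own start and 0.31 with the best region per gene. The cause of these changes was not tested. Jag1 exon 6 and the starts of Hey1, Pank4 and Fam120b passed under all 12 other settings of the fit, but both IgG values are 0 there, so multiplying or leaving out IgG could not change their differences and no stability is read from this. No paired analysis was possible because the IgG columns carry no replicate number. The unknown depth and the 2 libraries per group limit the precision of every value.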
